A study of Rattus norvegicus with 10 samples.

Results

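Aldoa, Aldoc and Gapdh, enzymes of glycolysis, were followed in the bone of the rat tibia after a single session of mechanical loading. They were taken by their accessions on the array (NM_012495, NM_012497 and NM_017008) and are 3 of the 4803 accessions measured. Female Wistar rats aged 12 weeks were used. In LOAD (n = 5) the right tibia was bent for 300 cycles at 2 Hz with a peak magnitude setting of 60 N. The paper reports that the force measured was higher than this setting. In SHAM (n = 5) the right tibia was squeezed without bending. The contralateral left tibia of the same rat was the control, and both tibiae were collected 6 hours later. The tissue was the tibial shaft without its ends, periosteum and marrow. Each of the 10 spotted oligonucleotide arrays compared the treated tibia with its own control, the pair being labelled with different dyes. The treated tibia carried Cy3 on LOAD 1, 3 and 4 and on SHAM 1, 3 and 5, and Cy5 on the other 4 arrays.

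Glycolysis turns glucose into pyruvate and yields ATP without oxygen. Bone-forming cells and red cells rely on it heavily. Fructose-bisphosphate aldolase splits the sugar fructose bisphosphate into a pair of triose phosphates. Aldoa is the form of muscle and red cells and Aldoc the form of brain. Gapdh, glyceraldehyde phosphate dehydrogenase, oxidizes a triose phosphate further along the pathway. Its transcript is widely used as a reference to which other transcripts are normalized.

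Several arrays call for care. One label field of SHAM 1 reads LOAD, while its title and description read SHAM. Counted as LOAD, it gave mean log2 ratios of treated to control tibia for Aldoa of -0.06 in LOAD and -0.28 in SHAM and a difference of 0.22, all with an adjusted p of 1.00 in limma. The numbers of the tibiae in the file headers are consecutive on 8 arrays, but LOAD 4 pairs tibia 3 with 26 and SHAM 4 pairs 25 with 4. LOAD 2 was dim (median log2 intensity 6.93, against 7.83 to 9.10 on the other arrays). Over all genes its ratios correlated at -0.34 with SHAM 2, -0.35 with LOAD 5 and -0.14 with SHAM 4, which carried the dyes in the same orientation. Among the pairs of like orientation without LOAD 2, SHAM 5 was also negative with LOAD 1 (-0.08) and LOAD 3 (-0.20), and all others were positive. The direction of LOAD 2 was not settled, and values are also given with its dyes exchanged. The bone products Ibsp, Spp1 and Phex carried signal in 20 of 20 channels. Ckm, the creatine kinase of muscle, and Alas2, the first enzyme of heme synthesis in red cell precursors, also did so, at a median of 13.2 and 239 times the empty spots. The leukocyte marker Cd53 carried signal in 20, the cartilage collagen Col2a1 in 16 and the vessel marker Kdr in 4 of 20 channels.

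The genes lie apart in the rat genome (GRCr8). Aldoa is at chr1:190832820-190838021, Aldoc at chr10:63715544-63719133 and Gapdh at chr4:159648592-159653436. The sequence upstream of the gene starts was searched for CACGT, which reads ACGTG on the other strand. It is 1 form of the core of the hypoxia response element. The letters also lie within the longer E-box CACGTG. The promoter table of RefSeq holds 3 starts of Aldoa and 1 each of Aldoc and Gapdh. In the 250 bases upstream, the core was found at 1 of the 3 Aldoa starts, 192 bases before it, 31 bases before the Aldoc start and 121 bases before the Gapdh start. This Aldoa start (190836777) and the Gapdh start (159652467) lie inside the gene spans given above. Their stretches are therefore upstream of the start used but within the span of the gene, while that of Aldoc lies outside it. Of all 33469 promoters of the table, 16.6% hold it in these bases. The matches are a description of letters. The search was made after the ratios of Aldoa and Gapdh were seen to move together, and a part of the core in these ratios was not tested. They are shown 5′ to 3′ on the strand of the gene, with the core in capitals.
Aldoa, chr1:190836952-190836981, minus strand: tgtggctcgagtCACGTcctagcggggcgg
Aldoc, chr10:63715501-63715530, plus strand: cccccagggagtCACGTagctctgcggcat
Gapdh, chr4:159652571-159652600, minus strand: gctttacgggtgCACGTagctcaggcctct
The stretches of Aldoc and Gapdh share a run of 10 bases that begins with the core.

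Aldoa and Gapdh were clearly expressed in every tibia, while Aldoc lay near background. A signal probability of at least 0.5 was reached by Aldoa and by Gapdh in 20 of 20 channels. The intensity of Aldoa was 12 to 120 times that of the empty spots of the same channel, with a median of 40.9. That of Gapdh was 18.2 to 147 times, with a median of 57.3. Aldoc reached the probability in 3 of 20 channels, with an intensity of 0.865 to 4.27 times the empty spots and a median of 2.12. These 3 channels were the control of LOAD 3 and both tibiae of SHAM 3. No treated tibia of LOAD was among them. Values of Aldoc are therefore given as measured near background, and no fold is drawn from them.

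The level of each gene per tibia is given as normalised log2 intensity, on a scale that compares tibiae and not genes. For Aldoa the control tibiae of LOAD 1 to 5 were at 11.03, 9.89, 11.36, 10.03 and 10.87, and the treated tibiae at 11.12, 10.22, 10.73, 10.85 and 9.59. In SHAM 1 to 5 the control tibiae were at 10.90, 11.18, 10.93, 11.06 and 11.28, and the treated tibiae at 11.22, 10.27, 11.21, 10.03 and 11.84. The control tibiae of SHAM lay close together (SD 0.16, n = 5), whereas the other sets had an SD of 0.61 to 0.75. This closeness takes the control tibia of SHAM 4, at 11.06, as labelled. By the header numbers the treated tibia of SHAM 4 would instead belong with the control tibia of LOAD 4, at 10.03, which lies below the other SHAM controls. All 4 sets of tibiae overlapped. From highest to lowest the means were 11.07 in SHAM control, 10.91 in SHAM treated, 10.64 in LOAD control and 10.50 in LOAD treated tibiae, and neighbours in this order differed by less than the SD of the wider set.

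For Gapdh the control tibiae of LOAD 1 to 5 were at 11.05, 10.15, 11.68, 10.94 and 11.07, and the treated tibiae at 11.15, 10.83, 11.48, 11.19 and 10.52. In SHAM 1 to 5 the control tibiae were at 11.55, 11.24, 11.68, 11.20 and 11.40, and the treated tibiae at 11.53, 11.05, 11.78, 10.80 and 11.62. The lowest Gapdh level was that of the LOAD 2 control tibia. The sets overlapped, with means of 11.41 in SHAM control, 11.36 in SHAM treated, 11.03 in LOAD treated and 10.98 in LOAD control tibiae, and neighbours differed by less than the SD of the wider set (0.20 to 0.54). Between the lowest and the highest of the 20 tibiae the level differed 3.09-fold for Gapdh and 4.76-fold for Aldoa. Aldoc ranged from 5.60 in the treated tibia of LOAD 2 to 7.36 in the treated tibia of SHAM 3.

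**Figure D1:**
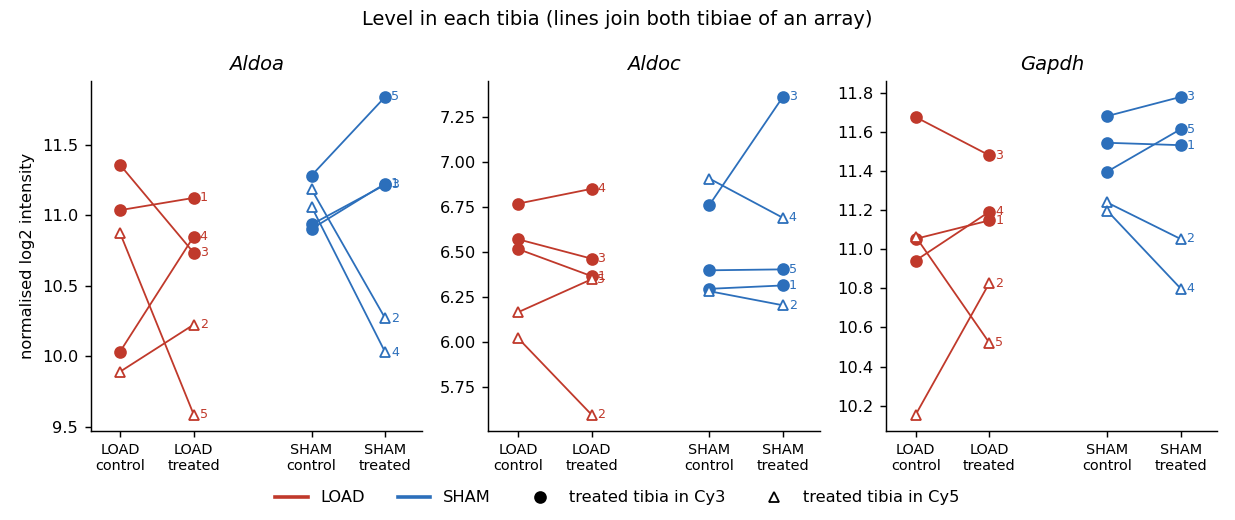
Normalised log2 intensity of Aldoa, Aldoc and Gapdh in each tibia, with a line joining the control and treated tibia of an array, LOAD in red and SHAM in blue, filled circles where the treated tibia carried Cy3 and open triangles where it carried Cy5. The lines of Aldoa and Gapdh run up on some arrays and down on others in both groups, and the 5 control tibiae of SHAM lie close together for Aldoa.

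The comparison of the loaded tibia with its control asks which transcripts bending and squeezing together changed within a rat. No change of the 3 genes was past the test. The log2 ratio of treated to control for Aldoa was 0.09, 0.33, -0.62, 0.82 and -1.29 in LOAD 1 to 5, that is higher in 3 rats and lower in 2. The mean was -0.13 ± 0.83 (SD, n = 5), with a 95% interval of -0.78 to 0.52 and an adjusted p of 1.00 in limma. For Gapdh the log2 ratios were 0.09, 0.67, -0.20, 0.25 and -0.54, again higher in 3 rats and lower in 2. Their mean was 0.06 ± 0.46 (SD, n = 5; 95% interval -0.27 to 0.38; limma adjusted p = 1.00), and it was -0.04 after median centring of each array in place of loess. Aldoc was at -0.15, -0.43, -0.11, 0.08 and 0.18, with a mean of -0.08 ± 0.24 (SD, n = 5; limma adjusted p = 1.00). Of all 4707 genes tested, 0% were called at a false discovery rate of 20% in limma and 3.34% had an unadjusted p under 0.05. With a spread of this size, changes of Aldoa within the interval cannot be seen with 5 arrays. The sign of each mean rested on 1 rat. Without LOAD 5 that of Aldoa was 0.15, and without LOAD 2 that of Gapdh was -0.10 and that of Aldoc 0.0018.

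In SHAM the tibia was held in the loading device without bending, so that the ratio shows the effect of squeezing and handling. Aldoa was at 0.32, -0.91, 0.28, -1.03 and 0.56 in SHAM 1 to 5, with a mean of -0.16 ± 0.75 (SD, n = 5; 95% interval -0.81 to 0.49; limma adjusted p = 1.00). It was higher in the 3 rats whose treated tibia carried Cy3 and lower in the 2 whose treated tibia carried Cy5. Gapdh was at -0.01, -0.19, 0.10, -0.40 and 0.22, with a mean of -0.06 ± 0.24 (SD, n = 5; 95% interval -0.38 to 0.27; limma adjusted p = 1.00). Aldoc was at 0.02, -0.08, 0.60, -0.22 and 0.01, with a mean of 0.07 ± 0.31 (SD, n = 5; limma adjusted p = 1.00). The highest of these, 0.60, came from SHAM 3, the only array on which both channels of Aldoc carried signal. Without it the mean was -0.07. The means of Aldoa and Gapdh were 0.06 and 0.03 without SHAM 4. In SHAM 0% of the genes were called and 0.68% had an unadjusted p under 0.05.

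**Figure D2:**
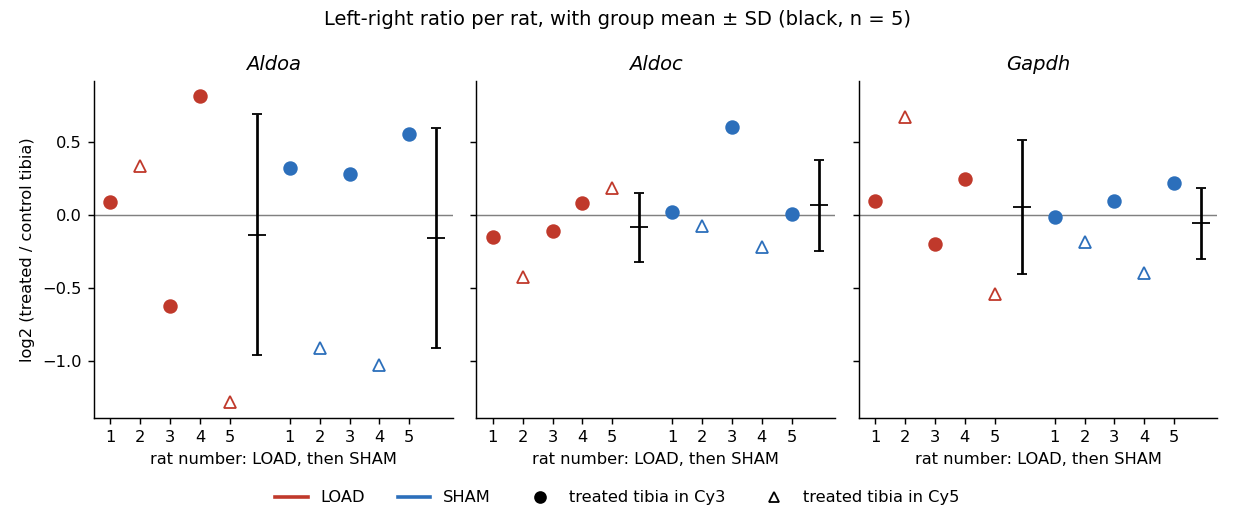
Log2 ratio of treated to control tibia for each rat of LOAD (red) and SHAM (blue), with the group mean and SD (n = 5) in black, filled circles for a treated tibia in Cy3 and open triangles for Cy5. Values lie on both sides of 0 in each group and for each gene, and Aldoa spreads from -1.29 to 0.82.

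The difference between LOAD and SHAM, the net effect of bending, was smaller than its error for all 3 genes. It was 0.02 (SE 0.42; 95% interval -0.90 to 0.94) for Aldoa, 0.11 (SE 0.21) for Gapdh and -0.15 (SE 0.17) for Aldoc, each with an adjusted p of 1.00 in limma. An exact two-sided permutation test of the 5 against the 5 ratios gave p = 0.929 for Aldoa, 0.659 for Gapdh and 0.468 for Aldoc. Of all genes 0% were called and 1.49% had an unadjusted p under 0.05. Within the scan batches the difference did not keep its sign. For Aldoa it was 0.51 in the batch with 2 arrays of each group, and -0.90, 1.85 and -1.84 in the batches with 1 of each. The corresponding values for Gapdh were 0.48, -0.29, 0.65 and -0.76. In the batches of LOAD 4 with SHAM 4 (1.85 for Aldoa) and of LOAD 5 with SHAM 5 (-1.84) the treated tibiae carried opposite dyes. Group and dye cannot be told apart within them. Without both arrays numbered 4 the difference for Aldoa was -0.43 (SE 0.40).

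The tibiae of the arrays numbered 4 were also compared across both arrays. As hybridized, with the tibiae in different dyes, the log2 ratio was 0.82 on LOAD 4 and -1.03 on SHAM 4. When the tibiae were recombined by their consecutive header numbers, the treated tibia of LOAD 4 differed from the control tibia of SHAM 4 by -0.21, and the treated tibia of SHAM 4 from the control tibia of LOAD 4 by -0.0039. For Gapdh the ratios of 0.25 and -0.40 became -0.0058 and -0.14. Recombined tibiae carried the same dye, so that the choice of tibiae and the dye cannot be told apart here. The header numbers alone do not settle which tibiae came from the same rat.

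The ratio of Aldoa differed with the dye of the treated tibia, but this was not past the test in the main fit. The Cy3 channel was the higher on 8 of 10 arrays, LOAD 2 and LOAD 3 being the exceptions. The same count held for Eno1, Gpd2, Hk1 and Pfkl. It was 7 of 10 for Gapdh and Aldoc and 0 of 10 for Slc2a2. With the treated tibia in Cy3 the mean log2 ratio was 0.24 ± 0.49 (SD, n = 6), and with the treated tibia in Cy5 it was -0.72 ± 0.72 (SD, n = 4). A dye term in the linear model, positive where Cy3 is higher, was 0.48 (SE 0.17; limma adjusted p = 0.30), while 1.83% of all genes, 86 in number, were called for dye at 20%. It was called without LOAD 2 (0.68, SE 0.13; limma adjusted p = 0.0415) and without LOAD 3 (0.58; limma adjusted p = 0.133), and likewise with the dyes of LOAD 2 exchanged (0.66, SE 0.13; limma adjusted p = 0.0562). Under these settings the share of all genes called for dye was also larger, 28.6%, 6.16% and 12.3%. LOAD 2 and LOAD 3 were the exceptions named above. Leaving out either, or exchanging the dyes of LOAD 2, was therefore bound to raise the term, and these calls add nothing to the main fit. Under the 10 other alternatives Aldoa was not called. For Gapdh the dye term was 0.09 (SE 0.11; limma adjusted p = 0.729), and 0.24 without LOAD 2 (limma adjusted p = 0.0699, among the same 28.6% of genes). LOAD 2 was also the array with the lowest Cy3 over Cy5 for Gapdh (-0.67). For Aldoc the dye term was 0.10 (SE 0.08; limma adjusted p = 0.608). With the dye term in the model the LOAD mean of Aldoa was -0.23 (SE 0.24), and with the dyes of LOAD 2 exchanged as well it was -0.67 (SE 0.18; limma adjusted p = 0.408). Under these same settings the LOAD mean of Gapdh was 0.04 (SE 0.15) and -0.33 (SE 0.13; limma adjusted p = 0.415).

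How steady Gapdh appeared as a reference depended on how the arrays were normalized. After loess, its log2 ratio had an SD of 0.35 over the 10 arrays, at the 79.7th percentile of the 4472 genes measured on each of them (median gene 0.23). All 6 other reference genes reported here varied less. Gusb, a lysosomal enzyme, had an SD of 0.09, B2m of the class I histocompatibility complex one of 0.10 and Ldha, lactate dehydrogenase, one of 0.14. The ribosomal genes Rpl32 and Rps29 were at 0.16 and 0.19, and the isomerase Ppia at 0.22. Gapdh lay within 0.25 of 0 on 6 of 10 arrays. The methods name 52 spots of Gapdh per region of the array, and the spots of Gapdh were combined to a single value. Its SD may therefore hold less spot noise than those of the other genes under each normalization, which was not tested.

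When each array was only centred on its median, the order turned. The SD of Gapdh was then 0.23, at the 28.8th percentile (median gene 0.29), below that of each of these 6 genes. It lay within 0.25 of 0 on 9 of 10 arrays, with LOAD 5 at -0.48 as the exception. The SD of Gusb was 0.28, that of Ppia 0.39, those of B2m and Ldha 0.45, that of Rpl32 0.55 and that of Rps29 0.64. All of these but Gusb were brighter, with normalised log2 intensities of 12.36 to 14.43, against 10.15 to 11.78 for Gapdh. Median centring, unlike loess, leaves in place a ratio that changes with intensity. The part of brightness in this order was not tested. Without any normalization the SD of Gapdh was 0.79, at the 65.9th percentile, and again the lowest of the 7 reference genes. The SD after loess was 0.28, at the 68.2nd percentile, without LOAD 2, on which Gapdh had its highest ratio. Used as the reference of each array, Gapdh left the mean log2 ratio of Aldoa at -0.18 (SE 0.21) in LOAD and -0.11 (SE 0.21) in SHAM, both with an adjusted p of 1.00 in limma. Aldoa varied more than Gapdh under each normalization, with an SD of 0.75 after loess (97.9th percentile), 0.62 after median centring and 0.87 without normalization. The SD of Aldoc, 0.27 after loess, includes the noise of signals near background.

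**Figure D3:**
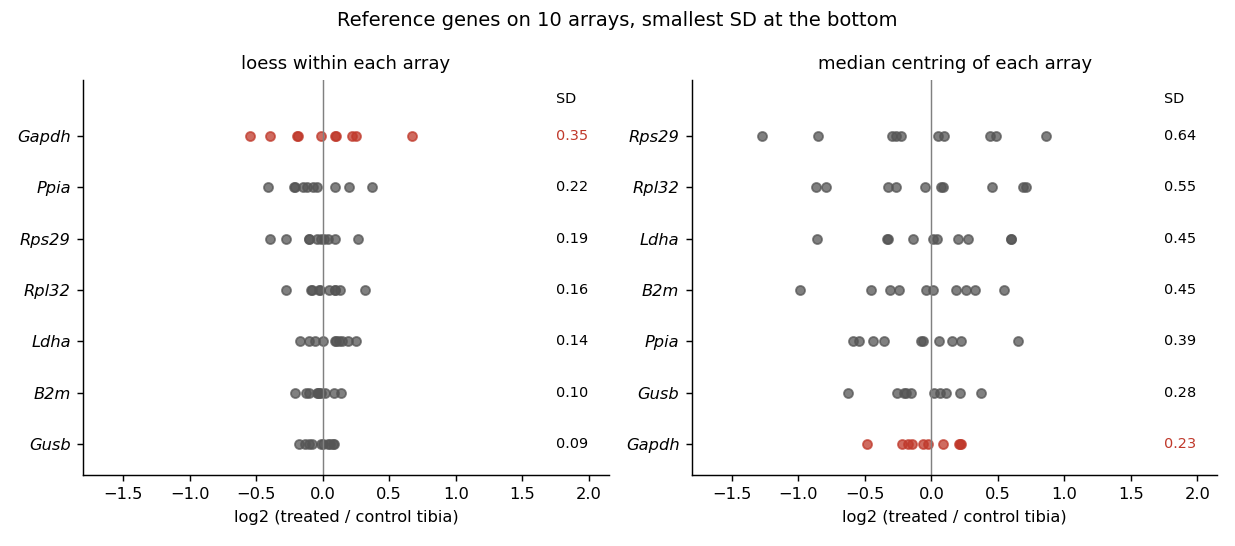
Log2 ratios of treated to control tibia of Gapdh and 6 other reference genes, each point 1 of the 10 arrays, after loess (left) and after median centring (right), ordered by SD from the smallest at the bottom, with Gapdh in red. Gapdh stands at the top on the left (SD 0.35) and at the bottom on the right (SD 0.23), while the ribosomal genes spread out on the right.

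Across the 10 arrays the ratios of Aldoa and Gapdh rose and fell together. Pearson's r was 0.84 and Spearman's rho 0.92 (permutation p = 0.00133 and 0.000460, and 0.00399 and 0.00138 after Benjamini-Hochberg adjustment over the 3 pairs). With LOAD 2 and LOAD 5 left out, where the Gapdh ratio was most extreme, r was 0.95. Among the 6 arrays with the treated tibia in Cy3 it was 0.93, and after removal of the dye term 0.92. Such a relation was not rare on these arrays, since 6.29% of the other genes had an r with Aldoa at least as high. After median centring r fell to 0.60 (permutation p = 0.0660; 0.198 adjusted). The r of Aldoc was 0.11 with Aldoa and -0.23 with Gapdh (permutation p = 0.771 and 0.523), from ratios near background that cannot show whether the transcripts are related.

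The ratio of Aldoa also moved with the transcripts of red cell precursors. The mean log2 ratio of the erythroid list, which is Alas2, the erythropoietin receptor Epor, the anion exchanger of the red cell membrane Slc4a1, and the transcription factor Gata1, was -0.02, 0.77, -0.46, 0.60 and -0.49 in LOAD 1 to 5. In SHAM 1 to 5 it was 0.17, -0.91, 0.12, -0.49 and 0.95. The 4 arrays with a low Aldoa ratio (LOAD 3 and 5, SHAM 2 and 4) were those with the lowest erythroid means. Pearson's r with Aldoa was 0.88 and rho 0.92 (permutation p = 0.00102 and 0.000690). Adjusted over the 21 relations of the 3 genes with 7 marker lists, these were 0.0208 and 0.0145. The share of all genes related as strongly to the erythroid mean was not computed. Ratios of many genes moved together on these arrays, 131 of 4472 genes having an r over 0.9 with Aldoa. The relation is therefore not shown to be particular to erythroid genes. The r was 0.89 without SHAM 2 and SHAM 5, the arrays with the most extreme erythroid means, 0.88 among the Cy3 arrays and 0.77 after median centring. For Gapdh r was 0.82 (permutation p = 0.00297; 0.0208 adjusted), 0.93 without that pair of arrays and 0.88 among the Cy3 arrays, but 0.32 after median centring, which was not past the test. For Aldoc it was -0.04.

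Of the single erythroid genes, Slc4a1 spread the most, from -2.30 on SHAM 2 to 2.43 on SHAM 5. Its r with Aldoa was 0.87 after loess and 0.79 after median centring. The others fell further under median centring, Alas2 from 0.69 to 0.23, Gata1 from 0.80 to 0.54 and Epor from 0.65 to 0.47. Alas2, Slc4a1 and Gata1 carried signal in 20 of 20 channels, although marrow had been removed from the shafts, and Epor in 4. In these bulk samples fewer cells of a type and less RNA per cell cannot be told apart, and the part of red cell precursors in the Aldoa ratios was not tested beyond these values. Of the other lists, that of fat, with Lpl and Lep on the array, had a mean that ran against Aldoa (r = -0.75, permutation p = 0.00647, 0.0340 adjusted) and Gapdh (r = -0.84, permutation p = 0.00263, 0.0208 adjusted). After median centring these were -0.67 and -0.52, and without LOAD 2 and LOAD 5, where the fat mean was most extreme, -0.67 and -0.65. Among the Cy3 arrays (n = 6) they were weaker, -0.50 and -0.43. Neither the osteocyte, the osteoblast, the leukocyte nor the cartilage list was past the test with any of the 3 genes.

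Muscle, in which Aldoa is the main aldolase, was examined in the same way, since muscle transcripts differed between tibiae of these rats. The mean log2 ratio of 13 muscle genes ranged from -0.92 on LOAD 4 to -0.03 on LOAD 1 in LOAD, and from -0.23 to 0.56 in SHAM. Of these genes 9 carried signal in 20 of 20 channels. Myl3 did so in 13, Myl11 in 12, Myog in 2 and Mstn in 0, so that the mean is in part drawn from values near background. No relation was shown with Aldoa (r = -0.33, rho = -0.31, permutation p = 0.357 and 0.388), with Gapdh (r = -0.09, p = 0.813 by permutation) or with Aldoc (r = -0.07, p = 0.845 by permutation), 0.845 after adjustment over the 3 relations. For Aldoa r turned to 0.42 without LOAD 4 and SHAM 2 and was -0.10 among the Cy3 arrays. The muscle gene Ckm ran against Aldoa on LOAD 4 (-2.56 against 0.82) and on SHAM 2 (1.57 against -0.91), while both were low on LOAD 3 (-2.10 and -0.62) and LOAD 5 (-1.96 and -1.29). Over the 10 arrays the r of Ckm with Aldoa was -0.04. Single genes of the list ranged from -0.87 for Scn4a, a sodium channel, and -0.83 for Cox6a2, a subunit of cytochrome oxidase, to 0.73 for Myl3, a myosin light chain, as a description. Without any normalization, where the offset of each array is shared by all genes, r was 0.55 for Aldoa, 0.89 for Gapdh and 0.74 for Aldoc.

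**Figure D4:**
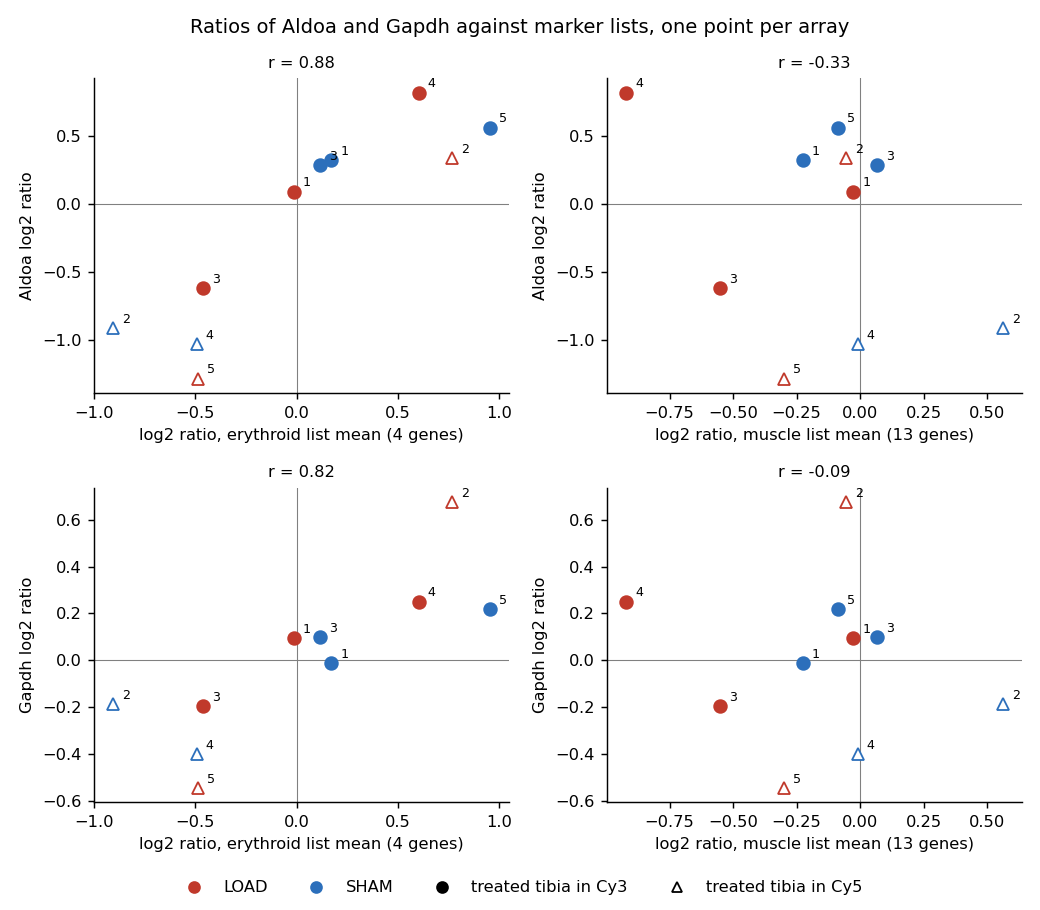
Log2 ratio of Aldoa (top) and Gapdh (bottom) against the mean log2 ratio of the erythroid list (left) and the muscle list (right), 1 point per array with its number, LOAD in red, SHAM in blue, and open triangles where the treated tibia carried Cy5. The points rise from left to right in the erythroid panels (r = 0.88 and 0.82) and show no such order in the muscle panels (r = -0.33 and -0.09).

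Of 25 genes of the glycolysis list 13 were on the array, and none was past the test in LOAD, in SHAM or in their difference. In LOAD 7 were higher and 6 lower, with a median log2 ratio of 0.02 (all genes -0.01). In SHAM 9 were higher and 4 lower, with a median of 0.03 (all genes 0.00). Beside the 3 genes followed here, Eno3, the enolase of muscle, had a LOAD mean of -0.66 (SE 0.28) with signal in 20 of 20 channels, and Pgam2, the phosphoglycerate mutase of muscle, one of -0.83 (SE 0.29), both with an adjusted p of 1.00 in limma. Pgam2 lay near background, with signal in 3 of the 10 channels of LOAD, and had no value on LOAD 2, so that no fold is drawn from it. The remaining 8 genes lay between -0.02 and 0.09. These were the hexokinases Hk1 and Hk2, the phosphofructokinase Pfkl, the enolase Eno1, the pyruvate kinase Pklr and the lactate dehydrogenases Ldha, Ldhb and Ldhc. For dye, 1 gene of the list was called, Eno1 at 0.55 (SE 0.14; limma adjusted p = 0.186), beside 1.83% of all genes. The call was lost without 8 of the 10 arrays in turn. The ratios of Eno1 ran close to those of Aldoa (r = 0.96, a description over 10 arrays).

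Of 28 genes that feed, regulate or branch from glycolysis 9 were on the array. None was past the test, with 4 higher and 5 lower in LOAD and 2 higher and 7 lower in SHAM. The glucose transporters Slc2a2, Slc2a3 and Slc2a4 had LOAD means of -0.20, 0.27 and 0.04, and the lactate transporter Slc16a1 was at 0.18. The regulators Pfkfb1 and Pfkfb4, which set the level of a fructose bisphosphate that activates phosphofructokinase, were at 0.05 and -0.05. Fbp1, Gpd2 and Pgm1, of the paths to glucose, glycerol phosphate and glycogen, were at -0.03, -0.11 and -0.08. Slc2a2 was called for dye, in the direction of Cy5 (-0.33, SE 0.08; limma adjusted p = 0.171).

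**Figure D5:**
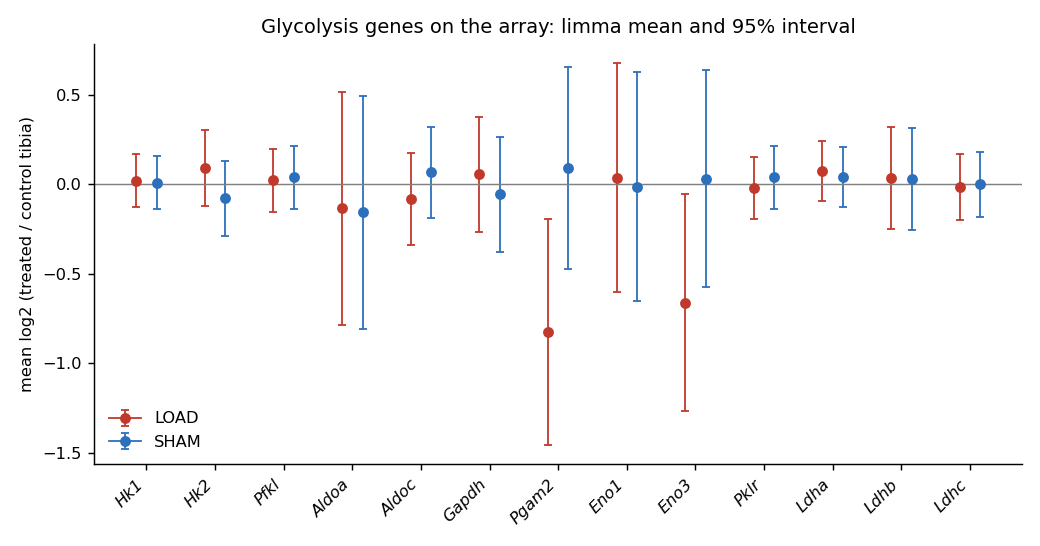
Mean log2 ratio of treated to control tibia with its 95% interval from limma for the 13 glycolysis genes on the array, LOAD in red and SHAM in blue, n = 5 arrays each except Pgam2 in LOAD (n = 4). Aldoa has wide intervals around -0.13 and -0.16, and only Pgam2 and Eno3 in LOAD have intervals below 0, neither past the test after adjustment.

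Among 1073 named genes measured on all arrays, those most like Aldoa by Pearson's r over the 10 arrays were Psap, Akt2, Gpd2, Asgr1 and Dnm2 (r = 0.98 to 0.97), and 131 of all 4472 genes had an r over 0.9. Most like Gapdh were Clcn1, Gfap, Ppp3ca, Pcsk7 and Bhlha15 (r = 0.99 to 0.94), with 77 genes over 0.9. For Aldoc they included Gnaz, Tbxas1, Meox2 and P2ry2 (r = 0.93 to 0.85), with 4 genes over 0.9. The ratios of Aldoc were near background and cannot show whether these transcripts are related to it. These are descriptions over arrays that share their normalization.

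Between rats, the levels of Aldoa and Gapdh were lower in LOAD than in SHAM in both tibiae, and no difference was past the test. In the contralateral controls, which asks for an effect of loading on the other leg, the difference LOAD minus SHAM was -0.43 (SE 0.48; limma adjusted p = 0.885) for Aldoa, -0.43 (SE 0.27; limma adjusted p = 0.843) for Gapdh and -0.12 (SE 0.24; limma adjusted p = 0.942) for Aldoc. An exact two-sided permutation test gave p = 0.246, 0.103 and 0.540. In the treated tibiae the differences were -0.41, -0.32 and -0.27 (exact permutation p = 0.365, 0.246 and 0.413). Of 4472 genes 0% were called in either comparison, and 5.23% and 4.61% had an unadjusted p under 0.05. Without LOAD 2 the differences between the controls were -0.25 for Aldoa and -0.23 for Gapdh. All these values take the control tibiae of the arrays numbered 4 as labelled, at 10.03 on LOAD 4 and 11.06 on SHAM 4 for Aldoa. An exchange of these tibiae would bring the control means of Aldoa closer together, and this contrast was not tested with them exchanged.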

How the data were processed

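Total RNA of both tibial shafts of a rat was labelled by the authors with Cy3 and Cy5 and hybridized to 1 array, with 5 rats in each group. The deposited scanner files hold an intensity per channel and a confidence and a signal probability, each a fraction, from BlueFuse (2.0 per the file headers, 3.0 per the methods). Spots of an accession, for Gapdh 52 per region of the array, had been combined. The deposited value table holds log2 ratios without normalization, within 0.000527 of those of the intensities, and its array medians run from -1.18 to 0.80. It was not used further. The probe sequences were not used here, and the methods state a chance of 10% that part of a spotted sequence binds another gene.

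Values whose confidence was below 0.11 were treated as missing. Log2 ratios were normalized within arrays by loess (span 0.3, 4 iterations), turned to treated over control, and genes missing on more than 1 of 10 arrays were left out (96 of 4803). The means of LOAD and SHAM were fitted in limma 3.58.1 (R 4.3.3) with Benjamini-Hochberg adjustment over 4707 genes, the threshold being 20%. Levels came from limma's single channel analysis after Aquantile normalization over 4472 genes. Correlations were tested with 100000 permutations, two-sided. Of the accessions, 1177 were named through the RefSeq table (GRCr8), also the source of the sequences. Scripts were tested on simulated data.

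The genes and lists were chosen with earlier results of these data known. Named were the 3 genes, the genes of the glycolysis, neighbouring and reference lists on the array, Ckm, Myl11 and Pgam2, and the 5 genes most like each of the 3. Some genes of these lists are not reported here and were left out of the list counts and medians. The erythroid and other marker relations, the exchange of dyes on LOAD 2, the recombined pairs, the dye term settings and the median-centred order of the reference genes were added after seeing the data. The number of arrays limits the precision.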

Additional observations from a re-analysis of the deposited data

Results flagged for a closer look

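The log2 ratio of Aldoc on SHAM 3 was 0.60, while the other 4 SHAM arrays lay between -0.22 and 0.02. Its gap to the nearest value was 0.711 of the range of the group, just above the critical value of 0.71 for 5 samples in Dixon's test. It was the only array on which Aldoc reached 0.5 in signal probability for both tibiae (0.73 and 0.6), with a confidence of 0.41. In all 18 sets of 5 ratios or levels were examined and 1 was marked, and chance marks about 1 in 20.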

How the results depend on the processing

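Of 656 values under other settings for 39 results, 562 kept their direction and their side of the threshold, or moved by less than the spread. Adjusted p-values of Aldoa, Aldoc and Gapdh in LOAD, SHAM and their difference ran from 0.378 to 1.00 in limma over all settings. After median centring, Gapdh in LOAD was -0.038, the difference LOAD minus SHAM of Aldoa was -0.064, the SD of Gapdh 0.23 at the 28.8th percentile, its r with muscle 0.31 and with the erythroid list 0.32, that of Aldoc with the erythroid list 0.35, that of Aldoa with Gapdh 0.60, and 5 genes were called for dye. Without normalization, Gapdh in LOAD was -0.24, Aldoc in SHAM -0.40 and its difference 0.19, 9 genes were called in LOAD and 2 in the difference, the SD of Gapdh was 0.79 at the 65.9th percentile, the r with muscle was 0.55, 0.74 and 0.89 for Aldoa, Aldoc and Gapdh, and r was 0.69 for Aldoa with Aldoc, 0.80 for Aldoc with Gapdh and 0.67 for Aldoc with the erythroid list. With Gapdh as the reference, Aldoc in LOAD was 0.038 and the difference of Aldoa -0.066. With the dyes of LOAD 2 exchanged, Aldoc and Gapdh in LOAD were 0.087 and -0.21, the differences of Aldoa, Aldoc and Gapdh -0.11, 0.021 and -0.16, the dye term of Aldoa 0.66 and the genes called for dye 577. With the dye term as well, these were 0.037 and -0.33 in LOAD and -0.38 and -0.24 for the differences of Aldoa and Gapdh. Without both arrays numbered 4, Aldoa and Gapdh in SHAM were 0.061 and 0.029, their differences -0.43 and -0.022, r of Aldoa with Aldoc -0.047, and 6 genes were called for dye. With the pairs recombined, Aldoa in SHAM was 0.048 and its difference -0.39. Among the Cy3 arrays, the r of Aldoc was 0.30 with muscle, 0.24 with Gapdh and 0.12 with the erythroid list. After removal of dye, r with muscle was 0.13 for Aldoc and 0.041 for Gapdh, and r of Aldoa with Aldoc was -0.22. The cause of these moves was not tested.

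Leaving out 1 array at a time gave -0.37 to 0.15 for Aldoa, -0.15 to 0.0018 for Aldoc and -0.10 to 0.21 for Gapdh in LOAD. In SHAM the ranges were -0.34 to 0.061, -0.068 to 0.14 and -0.13 to 0.029. For the differences of Aldoa and Gapdh they were -0.21 to 0.31 and -0.042 to 0.26. The dye term ran from 0.37 to 0.68 for Aldoa, 0.0013 to 0.24 for Gapdh and 0.46 to 0.69 for Eno1, whose call was lost without 8 of the 10 arrays in turn, and the genes called for dye from 7 without SHAM 4 to 1349 without LOAD 2. From 0 to 8 genes were called between the controls, the 8 without LOAD 3. The r with muscle ran from -0.37 to 0.019 for Aldoc and -0.20 to 0.12 for Gapdh, that of Aldoc with the erythroid list from -0.13 to 0.25, and r from -0.076 to 0.30 for Aldoa with Aldoc and -0.50 to 0.21 for Aldoc with Gapdh. The replicate numbers do not pair the rats, as same-numbered arrays deviated together with an r of -0.20, -0.26, 0.07, -0.41 and -0.29. With the replicate block, which by its balance leaves the differences LOAD minus SHAM at 0.02, -0.15 and 0.11 for Aldoa, Aldoc and Gapdh, the SE went from 0.42 to 0.51 for Aldoa, from 0.21 to 0.24 for Gapdh and was 0.17 in both fits for Aldoc, and 0 genes were called, as without it.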
